A study of Rattus norvegicus with 19 samples.

Results

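The genes described here encode the enzymes of xenobiotic metabolism, with their electron donor Por and the dioxin sensor Ahr and its partner Arnt, measured in whole rat thymus. They were chosen by a rule on symbols that uses no measured value, but the rule was set with earlier results of these data known. It took cytochromes P450 of families CYP1 to CYP4, UDP-glucuronosyltransferases, sulfotransferases, aldehyde oxidases, carboxylesterases, glutathione S-transferases, the epoxide hydrolases Ephx1 and Ephx2, Por, Ahr and Arnt. The rule found 115 genes, carried by 131 probes, among 14629 genes with a RefSeq symbol on the array. All animals were female Wistar rats aged 7 weeks, gavaged once a day for 14 days. They received saline at 10 ml/kg (5 arrays) or corn oil at 2 ml/kg (5 arrays), 5 ml/kg (4 arrays) or 10 ml/kg (5 arrays), and no group went without gavage. The study asked how corn oil, a vehicle for fat-soluble compounds, bears on gene expression in the thymus. Saline was given at the highest volume alone, so liquid and volume are separated only at 10 ml/kg. Each group had 6 animals, housed 3 to a cage per the labels, with the cage of each left unstated. The arrays lay on 5 slides, and unless stated the fit has no term for the slide. Its p-values thus measure the spread between these animals mixed with that between slides. They treat arrays of a slide as independent, although the estimated correlation within a slide was 0.507. Whole thymus mixes cell types, and fewer cells of a type cannot be told apart from less RNA per cell.

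Foreign compounds and many lipids are handled in steps. Phase I enzymes, chiefly the cytochromes P450 with Por passing them electrons, oxidise a molecule, and aldehyde oxidases, carboxylesterases and epoxide hydrolases oxidise or split others. Phase II enzymes then attach glucuronic acid, sulfate or glutathione. Ahr, once bound by a ligand such as dioxin, pairs with Arnt and turns on Cyp1a1, Cyp1a2 and Cyp1b1, and its activation in the thymus is known to shrink the organ. Liver is the main site of most of these enzymes.

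For the genes on which the results turn, the 250 bases before the start of the gene are shown, from RefSeq on build GRCr8, read 5′ to 3′ on the strand of the gene. Capitals mark GCGTG or its reverse complement CACGC, the core of the element bound by AHR with ARNT. Gstm4, Gsto1 and Aox4 are the members that were higher at 10 ml/kg. Cyp4f1 is the member called lower both without slide in the fit and with slide as a fixed block. Of the AHR targets named above, Cyp1a1, Cyp1a2 and Cyp1b1, Cyp1b1 is the one that was above background on every array. Gstm4 lies on the minus strand at chr2:198373384-198373633, Gsto1 on the plus strand at chr1:256662281-256662530, Aox4 on the plus strand at chr9:67255187-67255436, Cyp4f1 on the minus strand at chr7:12672554-12672803 and Cyp1b1 on the plus strand at chr6:21094315-21094564.
Gstm4: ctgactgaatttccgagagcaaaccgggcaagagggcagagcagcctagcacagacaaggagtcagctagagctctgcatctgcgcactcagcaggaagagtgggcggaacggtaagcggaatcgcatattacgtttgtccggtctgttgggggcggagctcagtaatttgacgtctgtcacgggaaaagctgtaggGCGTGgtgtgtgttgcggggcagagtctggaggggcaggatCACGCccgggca
Gsto1: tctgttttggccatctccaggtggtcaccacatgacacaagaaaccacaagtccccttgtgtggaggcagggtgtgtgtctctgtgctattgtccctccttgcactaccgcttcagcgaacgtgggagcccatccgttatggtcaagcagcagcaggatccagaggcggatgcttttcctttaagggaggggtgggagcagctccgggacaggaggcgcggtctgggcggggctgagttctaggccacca
Aox4: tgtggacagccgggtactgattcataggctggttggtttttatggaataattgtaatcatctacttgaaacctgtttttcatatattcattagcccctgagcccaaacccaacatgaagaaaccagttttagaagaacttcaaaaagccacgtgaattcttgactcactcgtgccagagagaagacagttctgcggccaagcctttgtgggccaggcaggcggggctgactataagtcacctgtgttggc
Cyp4f1: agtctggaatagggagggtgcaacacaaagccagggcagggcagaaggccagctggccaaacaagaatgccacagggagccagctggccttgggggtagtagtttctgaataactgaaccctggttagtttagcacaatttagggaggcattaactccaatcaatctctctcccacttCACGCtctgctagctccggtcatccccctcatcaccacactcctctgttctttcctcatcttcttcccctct
Cyp1b1: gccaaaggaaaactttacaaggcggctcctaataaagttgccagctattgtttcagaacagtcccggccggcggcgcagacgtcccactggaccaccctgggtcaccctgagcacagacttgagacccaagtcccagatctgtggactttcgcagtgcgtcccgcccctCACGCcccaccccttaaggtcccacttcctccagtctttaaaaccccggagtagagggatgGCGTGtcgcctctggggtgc
The core stood in the Gstm4 window 53 and 12 bases before the start, in that of Cyp1b1 at 81 and 20 bases, and in that of Cyp4f1 at 72 bases. The windows of Gsto1 and Aox4 did not hold these letters. Over all 103 members with a promoter entry, 20 held GCGTG on either strand (19.4%), beside 27.2% of 27457 rat promoters of the same length. The letters TGACNNNGC, the core of the antioxidant response element bound by NRF2, stood in 10 members (9.71%) beside 10.2% of all promoters. The motifs do not overlap each other in the windows printed, a match is a description of letters only, and no binding was measured.

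Which members were measured at all was read first from the scanner's mark for a spot well above background. Of the 131 member probes, 46 (35.1%) were marked so on all 19 arrays, against 60.1% of all 30367 probes. A further 74 were above background on some arrays and 11 on none. The probes on none were 8.40% of the members' and 8.72% of all. Cyp1a1, the classical AHR-induced enzyme, was on no array above background, nor were Cyp2b21, Cyp2g1, Cyp3a2, Cyp4x1, Gstt4, Sult1d1 and Sult2a2. Another 16 genes reached it on 1 to 3 arrays, among them Cyp1a2 on 3, the liver enzyme Cyp2c13 on 1, Cyp3a23-3a1 on 1, Sult2a1 on 1 and 7 of the glucuronosyltransferases of family 2. The remaining 91 genes were tested.

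Glutathione S-transferases, which join glutathione to reactive molecules, were the group with the most genes measured throughout, 17 of 24 being above background on all 19 arrays and 23 tested. Of 27 CYP2 genes, 9 were above it on all arrays and 21 were tested. Families CYP1 and CYP3 gave 1 of 3 and 2 of 5 genes to the test, and CYP4, whose enzymes mostly hydroxylate fatty acids and eicosanoids, gave 12 of 13. All 13 carboxylesterases on the array were tested, but 2 were above background throughout. Of 10 glucuronosyltransferases 3 were tested, and of 11 sulfotransferases 7. Por, Ahr, both epoxide hydrolases and Gstp1 were above background on every array, and Arnt on 17 of 19.

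Detection followed the slide as well as the animal. Each slide carried arrays of 2 groups. The 4 arrays of slide 1 (saline replicates 3 and 4, 2 ml/kg replicates 2 and 3) had 62, 56, 66 and 72 member probes above background, and the other arrays 68 or more. The shares over all probes moved alike, from 63.1% on saline replicate 4 to 84.8% on 5 ml/kg replicate 4.

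**Figure D1:**
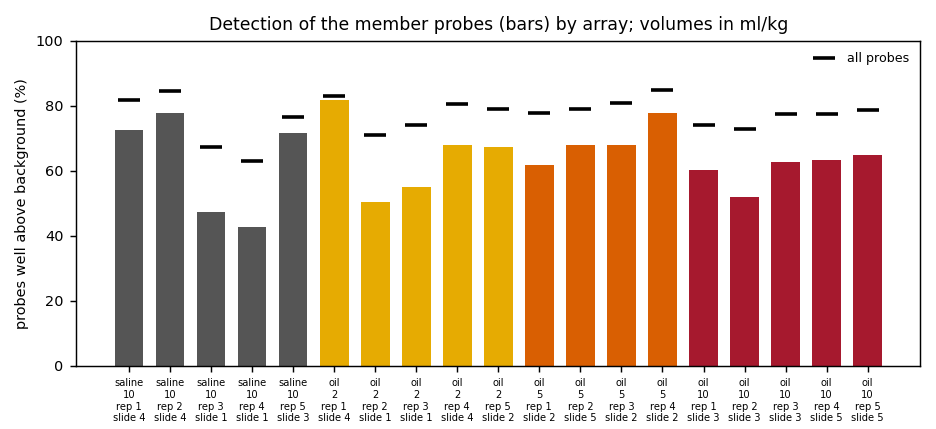
Share of the 131 member probes (bars, coloured by group) and of all 30367 probes (black marks) that were well above background on each of the 19 arrays, in percent. The share of members lies below that of all probes on every array, from 42.7% on saline replicate 4 to 81.7% on 2 ml/kg replicate 1.

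Values below are log2 of the processed intensity relative to the 75th percentile of the same array, so they compare arrays for a probe and not one gene with another. At 10 ml/kg, corn oil differed from saline for 12 of the 91 tested members. Gstm4, Gsto1 and Aox4 rose. Ces1f, Ces4a, Cyp1b1, Cyp4a3, Cyp4f1, Cyp4f5, Ephx1, Sult2a6 and Ugt2b15 fell. The calls are those of limma with a Benjamini-Hochberg adjusted p under 0.05. Over all 22667 genes tested the same rule called 6.34%, 2.80% higher and 3.54% lower, beside 13.2% of the members. The median difference was -0.45 over the members and -0.13 over all genes, and 66 of the 91 members had a negative difference. Dim genes had lower differences in general. Split at the members' median level over all arrays, the dimmer 45 had a median of -0.87, beside -0.71 over all genes as dim. The brighter 46 had -0.185, beside -0.064 over all genes as bright. The lean changed with the fit. With quantile normalization 43 of 91 were negative with 4 called higher and 0 lower, and with another background correction (normexp) 29 were negative with 2 called higher and 0 lower. The median over all genes moved from -0.13 to 0.06 and 0.09 in these fits. With slide as a fixed block 54 of 91 were negative (median -0.11 over the members and -0.01 over all genes), and with scan day 64 (-0.19 and -0.04).

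Gstm4, a mu-class glutathione S-transferase, had the lowest adjusted p among the members. Its levels were -2.31, -2.25, -2.31, -2.41 and -2.28 with saline, and -2.39, -2.30, -2.35, -2.25 and -2.32 at 2 ml/kg. At 5 ml/kg they were -2.31, -2.58, -2.11 and -2.26, and at 10 ml/kg -1.42, -1.34, -1.50, -1.35 and -1.50. Every array at 10 ml/kg lay above every other array, while the saline, 2 ml/kg and 5 ml/kg groups overlapped. The difference from saline was 0.89 ± 0.079 (SE, limma adjusted p = 2.12e-06), a 1.86-fold rise. In the fit with slide as a block it was 0.97 (adjusted p = 0.00036). Within slide 3 the 3 arrays at 10 ml/kg exceeded the saline array by 0.86, and within slide 5 the 2 arrays at 10 ml/kg exceeded the 5 ml/kg array by 1.16. The call held in all 13 alternative fits and without any single array.

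Gstm4 stands at the end of a row of mu-class genes on chromosome 2, in the order Gstm5, Gstm6l, Gstm7, Gstm6, Gstm3l1, Gstm3, Gstm2, Gstm1 and Gstm4. Of the 8 on the array, Gstm4 was the one called at 10 ml/kg against saline. Its neighbour Gstm1 differed by -0.09 (adjusted p = 0.423), Gstm2 by -0.18, Gstm7 by 0.46 (adjusted p = 0.174) and Gstm5 by 0.79 (adjusted p = 0.243). Gstm6l had a wider difference, -2.23 (adjusted p = 0.0973). Gstm3 (adjusted p = 0.218) and Gstm6 (adjusted p = 0.138) were above background on 3 saline arrays and on none at 10 ml/kg, at least 1.87-fold and 1.70-fold lower and not called. For Gstm6l, Gstm3 and Gstm6 every array of slide 1 lay above all other arrays (Gstm6 at -6.59 to -5.72 against -9.31 to -7.34). Slide 1 held saline arrays but none at 10 ml/kg, so slide and group are mixed in these falls. Probes of such near-identical genes can take up each other's RNA, which these values cannot separate.

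Gsto1, an omega-class transferase that reduces arsenicals and dehydroascorbate, lay with saline at -0.42, 0.04, -0.41, -0.53 and -0.45. With 10 ml/kg corn oil it lay at 0.51, 0.69, -0.05, 0.32 and 0.34. Saline replicate 2 alone exceeded the lowest array at 10 ml/kg, so the groups overlapped by that array. The difference was 0.71 ± 0.134 (limma adjusted p = 0.00367). The 2 and 5 ml/kg arrays lay between -0.76 and -0.32. Adding slide as a block gave 0.73 and ended the call (adjusted p = 0.119). The difference from saline was 0.83 within slide 3. Slide 5 held no saline array, and there 10 ml/kg exceeded 5 ml/kg by 0.65.

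Aox4, an aldehyde oxidase that oxidises aldehydes and nitrogen heterocycles, had the largest fitted rise among the tested members. It was above background on 3 of 5 saline arrays, 3 of 5 at 2 ml/kg, all 4 at 5 ml/kg and all 5 at 10 ml/kg. Its levels were -6.60, -5.83, -7.53, -6.91 and -6.47 with saline and -6.62, -6.53, -7.24, -6.46 and -6.11 at 2 ml/kg. They were -5.61, -5.95, -6.45 and -6.51 at 5 ml/kg and -2.38, -4.31, -3.56, -4.91 and -5.40 at 10 ml/kg. All 5 arrays at 10 ml/kg lay above all 14 others, with a spread wider than in the other groups (SD 1.19 against 0.62 with saline). The difference from saline was 2.56 ± 0.452 (limma adjusted p = 0.00246), against 2.38 once slide was a block (adjusted p = 0.0579) and 1.37 with normexp (adjusted p = 0.233), neither called. It was 3.05 within slide 3 and, against 5 ml/kg, 0.80 within slide 5. The genes beside it on chromosome 9 did not pass: Aox1 differed by -0.62 and Aox3 by -0.75. Nor did Aox2, also on chromosome 9, which averaged -4.66 with saline and -4.49 at 10 ml/kg.

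**Figure D2:**
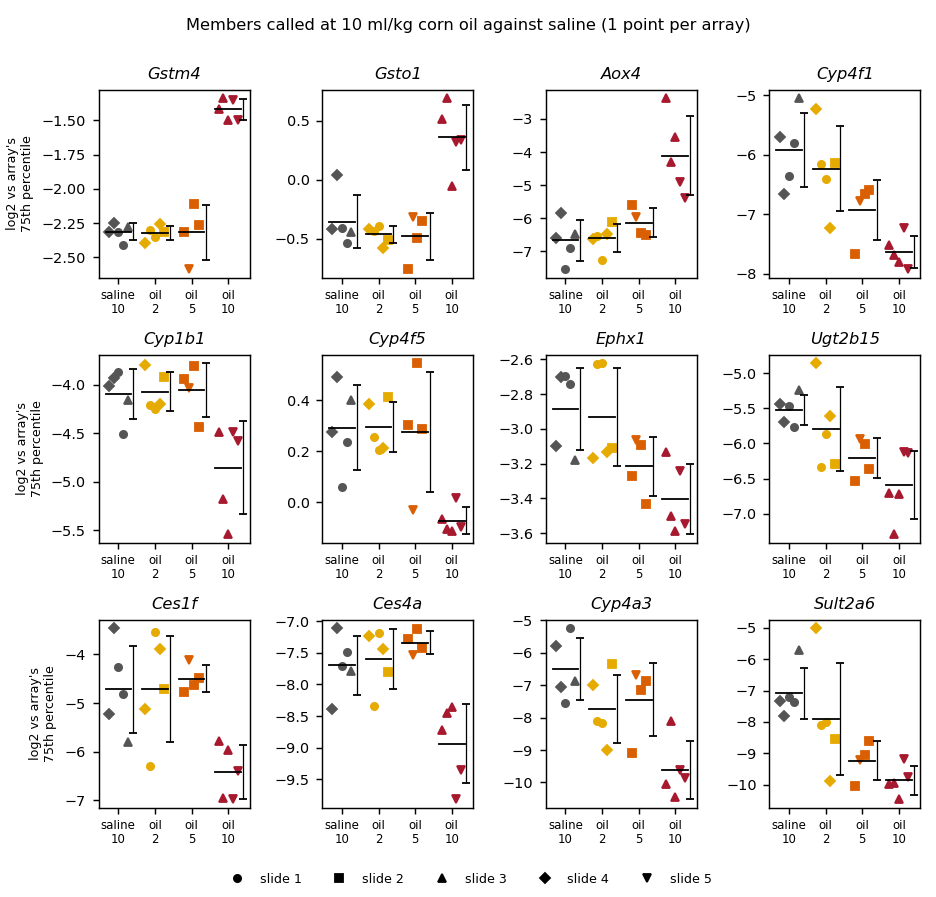
Level of the 12 members called at 10 ml/kg corn oil against saline, as log2 relative to the 75th percentile of the array, by liquid and volume in ml/kg. Points are arrays with a shape per slide, lines are group means and bars are SD; every 10 ml/kg point of Gstm4 and Aox4 lies above all other arrays, and Cyp4a3, Ces4a and Sult2a6 were not well above background on any array at 10 ml/kg.

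Among the phase I enzymes, 3 CYP4 genes fell at 10 ml/kg. Cyp4f1, a leukotriene and fatty acid hydroxylase, lay at -5.71, -6.67, -6.37, -5.80 and -5.05 with saline and at -7.51, -7.69, -7.81, -7.23 and -7.92 at 10 ml/kg. The groups did not overlap. The 5 ml/kg arrays (-7.68, -6.77, -6.66 and -6.59) reached into both ranges. The difference was -1.72 ± 0.338 (limma adjusted p = 0.00546), against -2.37 once slide was a block (adjusted p = 0.0404). Cyp4f1 and Gstm4 were thus the members called with slide as a fixed block, 2 of 91, where the background over all genes was 2.00%. With slide as a random block Cyp4a3, Sult2a6 and Ugt2b15 were called lower too. The difference of Cyp4f1 was -0.98 with quantile normalization and -0.02 with normexp, neither called.

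Cyp4f5, another CYP4F enzyme, lay at 0.28, 0.49, 0.06, 0.24 and 0.40 with saline. With 10 ml/kg corn oil its levels were -0.06, -0.11, -0.11, 0.01 and -0.10, below every saline array. The difference was small, -0.37 ± 0.101 (limma adjusted p = 0.0389), and was not called with slide as a block (-0.37, adjusted p = 0.188). On leaving out any of saline replicates 1, 2 and 4, 5 ml/kg replicates 1 and 4 and 10 ml/kg replicates 1, 2, 3 and 5 the adjusted p rose to between 0.0501 and 0.0865.

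Cyp4a3, a fatty acid omega-hydroxylase and PPARα target in liver, lay at -5.80, -7.06, -7.56, -5.25 and -6.87 with saline. At 10 ml/kg it read -10.05, -8.12, -10.46, -9.61 and -9.87 and was above background on none of these arrays. It was at least 2.84-fold lower than with saline, taking the signal just above background as the bound on each dim array (fitted difference -3.11, limma adjusted p = 0.00489). The fitted difference was -3.64 with slide as a block (adjusted p = 0.091) and 0.08 with normexp. Its neighbour Cyp4a1 differed by -1.90 (adjusted p = 0.079).

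Cyp1b1, an AHR target that oxidises polycyclic hydrocarbons and oestrogens, lay at -4.01, -3.93, -3.87, -4.51 and -4.15 with saline. Corn oil at 10 ml/kg gave -4.48, -5.18, -5.54, -4.49 and -4.58. Saline replicate 4 was the one saline array within the range at 10 ml/kg. The difference was -0.76 ± 0.2 (limma adjusted p = 0.0315), against -0.84 once slide was a block (adjusted p = 0.186), and -0.91 within slide 3. Leaving out any of saline replicates 1 to 3 and 10 ml/kg replicates 2 and 3 ended the call, with adjusted p-values up to 0.0887. Ahr itself, at -3.39 to -3.13 with saline and -3.72 to -2.95 at 10 ml/kg, differed by -0.09 (adjusted p = 0.654). Arnt differed by 0.01 (adjusted p = 0.986) and Por by -0.14 (adjusted p = 0.296).

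Ephx1, the microsomal epoxide hydrolase, lay at -3.10, -2.70, -2.69, -2.74 and -3.18 with saline and at -3.13, -3.50, -3.59, -3.24 and -3.55 at 10 ml/kg. The groups overlapped through 10 ml/kg replicate 1 and saline replicate 5, both on slide 3. The difference was -0.52 ± 0.146 (limma adjusted p = 0.0431), fell short with slide as a block (-0.32, adjusted p = 0.463), and was -0.23 within slide 3. It was not called on leaving out any of saline replicates 2 to 4, 5 ml/kg replicates 1 to 3 and 10 ml/kg replicates 2, 3 and 5. Ephx2, the soluble enzyme that hydrolyses fatty acid epoxides, differed by -0.40 (adjusted p = 0.25).

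Carboxylesterases, which split ester and amide bonds in drugs and lipids, had negative differences at 10 ml/kg in 13 of 13 tested genes, with a median of -0.90 and 2 calls. Of these genes 2 were above background on every array, and all genes in the dimmer range given above had a median of -0.71. With quantile normalization 6 of the 13 were negative, with normexp 3 and with slide as a block 12. Ces1f lay at -5.22, -3.47, -4.26, -4.82 and -5.80 with saline and at -5.77, -6.96, -5.96, -6.98 and -6.40 at 10 ml/kg. The ranges overlapped by saline replicate 5 alone. Its difference was -1.70 ± 0.479 (limma adjusted p = 0.0436), against -1.09 once slide was a block (adjusted p = 0.611). Its call was lost on leaving out any one of 14 arrays, with adjusted p-values up to 0.111, and held without saline replicate 5, 2 ml/kg replicate 2, 3 or 4, or 10 ml/kg replicate 1. Ces4a was above background on 2 of 5 saline arrays and on none at 10 ml/kg, and was at least 1.20-fold lower (fitted difference -1.24, limma adjusted p = 0.0168). Its fitted difference was -0.91 with slide as a block (adjusted p = 0.3), 0.11 with quantile normalization and 0.38 with normexp.

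Of the conjugating enzymes outside the glutathione S-transferases, Ugt2b15 and Sult2a6 fell. Ugt2b15, which glucuronidates steroids, lay at -5.44, -5.69, -5.47, -5.77 and -5.24 with saline and at -6.70, -7.29, -6.71, -6.12 and -6.13 at 10 ml/kg, without overlap. It fell by 1.07 ± 0.265 (limma adjusted p = 0.0226), and the difference was -1.27 with slide as a block (adjusted p = 0.0844) and 0.11 with normexp. On leaving out any of saline replicates 1 and 3 and 10 ml/kg replicates 1 to 3 its adjusted p rose to 0.0506 to 0.0643. Sult2a6, a hydroxysteroid sulfotransferase, was above background on 3 saline arrays, on 1 at 2 ml/kg and on none at 5 or 10 ml/kg. Sult2a6 thus met the filter of 4 arrays only through saline, so its call as lower is not independent of its entry into the test. Sult2a6 was at least 1.90-fold lower at 10 ml/kg than with saline (fitted difference -2.78, limma adjusted p = 0.0158). The fitted difference was -3.52 with slide as a block (adjusted p = 0.128) and 0.09 with normexp. Ugt1a6, the broad phenol-conjugating enzyme, differed by 0.02 (adjusted p = 0.947) and Sult1a1, the main phenol sulfotransferase, by -0.13 (adjusted p = 0.827).

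**Figure D3:**
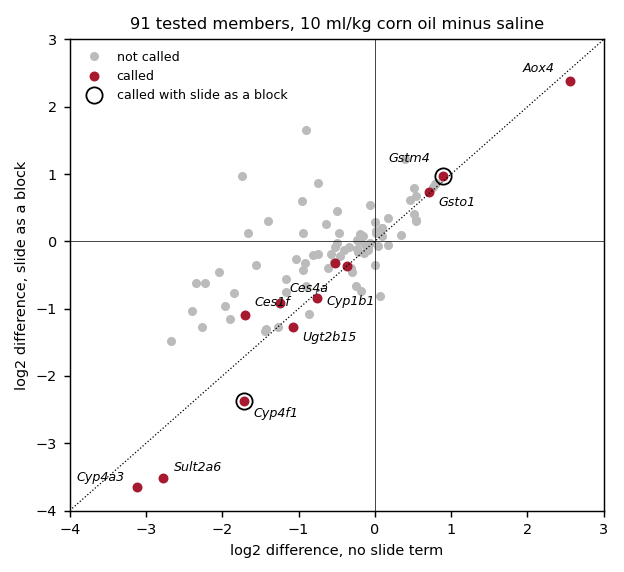
Log2 difference of 10 ml/kg corn oil minus saline for the 91 tested members, without a slide term (horizontal axis) and with slide as a block (vertical axis); the dotted line marks equal values, red points are the 12 members called without the term and ringed points the 2 called with it. Gstm4, Gsto1 and Aox4 lie near the dotted line, and many uncalled members at the lower left lie closer to 0 with slide in the fit.

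At 10 ml/kg against 2 ml/kg of the same liquid, 18 of 91 members were called, beside 12.5% of all genes (3.69% higher and 8.77% lower). Both comparisons share the 10 ml/kg arrays. Higher were Gstm4 (0.90 ± 0.0788, limma adjusted p = 1.78e-06), Gsto1 (0.82), Aox4 (2.48), Cyp4f4 (0.64) and Sult1c3 (1.00). Lower were the carboxylesterases Ces1e, Ces1f, Ces4a and Cesl1, the P450s Cyp1b1, Cyp2e1, Cyp4a3, Cyp4f1, Cyp4f5 and Cyp4v3, and Ephx1, Gstm6l and Sult1c2. With slide as a block Gstm4 alone was called among the members (1.01, adjusted p = 0.000545), where the background was 1.23% of all genes. The split of 5 higher and 13 lower became 8 higher and 2 lower with quantile normalization, and 2 higher and 0 lower with normexp. The median difference was -0.50 over the members and -0.19 over all genes. In the dimmer 45 members it was -1.05, beside -0.86 over all genes as dim. In the brighter 46 it was -0.24, beside -0.10 over all genes as bright.

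Cyp4f4, which acts on leukotrienes and fatty acids, lay at -5.29, -5.16, -4.51, -5.57 and -5.86 at 2 ml/kg. The 10 ml/kg arrays lay at -4.72, -4.52, -4.72, -4.51 and -4.71, in a band narrower than in any other group (SD 0.11). One array at 2 ml/kg, replicate 3, lay as high, and all 5 saline arrays lay below (-5.34 to -4.96). The difference from 2 ml/kg was 0.64 ± 0.186 (limma adjusted p = 0.0356), and that from saline 0.54 (adjusted p = 0.0923). Without 2 ml/kg replicate 1, 2, 4 or 5 or 10 ml/kg replicate 1, 2 or 3 the call was lost (adjusted p up to 0.086). Sult1c3 was above background on 1 of 5 arrays at 2 ml/kg and on 4 of 5 at 10 ml/kg, and its difference of 1.00 was -0.14 with normexp.

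Cyp4v3, a fatty acid hydroxylase, read -3.12, -3.13, -2.80, -3.24 and -3.02 at 2 ml/kg and -4.49, -4.92, -5.21, -3.85 and -3.34 at 10 ml/kg. The groups did not overlap, and the lowest levels at 10 ml/kg were those of slide 3, where the saline array also read -4.43. Its difference fell from -1.30 (limma adjusted p = 0.0147) to -0.51 (adjusted p = 0.376) with slide as a block. The calls of Ces1e, Gstm6l and Sult1c2 likewise came with differences of -2.76, -2.48 and -2.66 that were -1.22, -0.58 and -1.57 with slide in the fit. Their calls were lost on leaving out any one of 5, 13 and 10 arrays. Each of these sets included 2 ml/kg replicates 2 and 3 and 10 ml/kg replicates 1, 2 and 3; that of Gstm6l also held all 4 arrays at 5 ml/kg, 2 ml/kg replicates 1 and 4, and saline replicates 1 and 2, and that of Sult1c2 also 5 ml/kg replicates 2 to 4, saline replicate 1 and 2 ml/kg replicate 4. Against 2 ml/kg, the calls of Cyp4a3 and Ephx1 were lost on leaving out any one of 13 and 12 arrays (adjusted p up to 0.12 and 0.123). That of Cyp4f5 was lost without any of 2 ml/kg replicates 1 and 2 and 10 ml/kg replicates 1 to 3, that of Ces1f without any of 2 ml/kg replicates 3 and 4 and 10 ml/kg replicate 2, and that of Cyp1b1 without either of 10 ml/kg replicates 2 and 3. Cyp4a3 kept its call without 2 ml/kg replicate 4, 5 ml/kg replicate 1, 10 ml/kg replicate 2 or any of saline replicates 3 to 5. Ephx1 kept its call without any of saline replicates 2, 3 and 5, 2 ml/kg replicates 1 and 5 and 10 ml/kg replicates 1 and 4.

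Ces1e, Gstm6l and Sult1c2 belong to a set of members that stood high on slide 1. Slides 1 and 4 each held 2 saline and 2 2 ml/kg arrays, so their difference is balanced over these groups. Of the 91 tested members, 19 (20.9%) were over 1 log2 unit higher on slide 1 than on slide 4, beside 12.3% of all genes tested, and 2 were over 1 lower. For 15 members (16.5%), all 4 arrays of slide 1 lay above all 15 other arrays, as they did for 13.7% of all genes. Cyp2b3 lay at -2.47 to -1.64 on slide 1 and at -7.11 to -4.31 on the other slides. Its other tested probe lay at -5.44 to -4.95 against -6.96 to -5.57, and differed from saline by -0.52 at 10 ml/kg, not called. Gstm6l lay at -3.15 to -2.68 against -8.09 to -4.90, Sult1c2 at -4.66 to -4.07 against -10.06 to -6.46, and Gstm3 at -5.59 to -4.91 against -10.46 to -6.58. The 10 ml/kg group had no array on slide 1, and among its larger uncalled differences from saline were those of Cyp2b3 (-2.05), Gstm6l (-2.23) and Ugt1a9 (-2.35). They were -0.46, -0.62 and -0.62 with slide as a block.

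**Figure D4:**
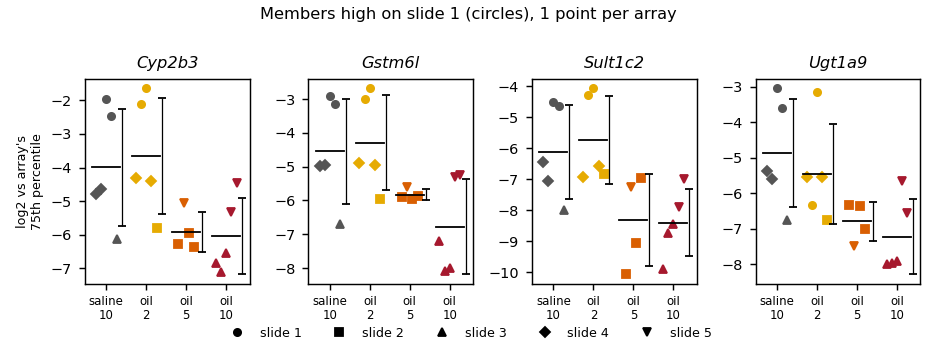
Levels of Cyp2b3, Gstm6l, Sult1c2 and Ugt1a9 (log2 relative to the 75th percentile of the array) by liquid and volume in ml/kg; point shape gives the slide, lines are means and bars SD. The saline and 2 ml/kg arrays on slide 1 (circles) form the top of each panel, except 1 circle of Ugt1a9, and the 10 ml/kg arrays lie on slides 3 and 5.

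At 5 ml/kg against saline, none of the 91 members was called by limma, beside 0% of all genes. Unadjusted p-values were under 0.05 for 18 members (19.8%) and for 8.29% of all genes, and the lowest adjusted p of a member was 0.576. The largest positive differences were in carboxylesterases and Cyp2e1, the ethanol- and fatty-acid-oxidising P450: Cesl1 at 2.15 ± 0.594, Ces1d at 2.13, Ces1dl1 at 1.85 and Cyp2e1 at 1.18. Among the larger negative fitted differences were Ugt1a9 at -1.92, above background on 3 of 4 arrays at 5 ml/kg, and Cyp2b3 at -1.91, above it on all 4. The other tested probe of Cyp2b3 differed by -0.41. Sult1c2 (-2.19) and Cyp2b1 (-1.56) were above it on 2 of 4, and Sult2a6 on none, so that it was at least 1.88-fold lower. Values near background have no order among themselves. At 2 ml/kg against saline the count was again 0, beside 0% of all genes, with 2 members (2.20%) and 0.922% of all genes at an unadjusted p under 0.05. Ces1d (1.57), Cesl1 (1.46) and Aox3 (0.92) had the largest positive differences, and Cyp4a3 (-1.22), Sult2a6 (-0.82) and Cyp4a1 (-0.63) were among the negative ones, with Cyp4a3 above background on 2 of 5 arrays at 2 ml/kg, Sult2a6 on 1 and Cyp4a1 on 4. Within slides 1 and 4, 2 ml/kg differed from saline by 0.92 and 1.29 for Cyp2j10 and by -1.57 and -0.17 for Gsto2. Cyp2j10 was above background on 1 array of each of these groups.

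Ces1d, a lipid ester hydrolase of liver and fat, showed how unevenly these genes were spread over animals. Its levels were -2.33, 1.27, -1.41, -3.63 and -2.87 with saline, -1.02, -1.39, 0.46, 0.60 and 0.26 at 2 ml/kg, and 0.17, 0.38, 0.24 and 0.57 at 5 ml/kg. At 10 ml/kg the 3 arrays with a value read -2.91, -2.46 and -2.70, and 2 spots marked as uneven were left out. The 5 ml/kg arrays were alike and high, and saline replicate 2 stood above all other arrays.

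Cesl1 lay at -6.53, -3.57, -6.46, -6.90 and -6.71 with saline and at -4.31, -4.05, -3.70 and -3.51 at 5 ml/kg. It lay at -5.36, -5.86, -3.62, -3.70 and -4.32 at 2 ml/kg and at -7.46, -7.53, -6.42, -7.44 and -7.18 at 10 ml/kg, below every 2 ml/kg array. Its difference between 10 and 2 ml/kg was -2.63 ± 0.56 (limma adjusted p = 0.00768), against -2.10 once slide was a block (adjusted p = 0.369). Cyp2e1 lay at -3.79, -3.98, -3.09, -2.87 and -2.93 at 2 ml/kg and at -3.71, -5.96, -5.17, -5.85 and -5.81 at 10 ml/kg, where replicate 1 overlapped the lower volume. Cyp2e1 differed by -1.97 ± 0.501 (adjusted p = 0.0211), by -1.99 with slide as a block (adjusted p = 0.337), and lost its call without 2 ml/kg replicate 3 or 10 ml/kg replicate 2.

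Markers of fat cells were high on some of the arrays where these genes were high, but the levels did not match throughout. The summed level of the 18 adipocyte markers tested, of which 12 to 18 were above background on an array, was 11.3, 87.5, 11.8, 7.77 and 16.1 with saline. It was 16.8, 13.2, 52.8, 47.7 and 23.8 at 2 ml/kg, 34.8, 43.4, 30.3 and 43.9 at 5 ml/kg, and 24.3, 13.7, 21.5, 8.70 and 10.5 at 10 ml/kg. Saline replicate 2 was highest in the markers and in Ces1d, Aox1, Sult1a1 and Gsta4, and the 5 ml/kg arrays were uniformly high in the markers, Ces1d and Cesl1. Cesl1 and Cyp2e1 were highest on 5 ml/kg replicate 4 (-3.51 and -2.05). At marker sums of 24.3 (10 ml/kg replicate 1) and 23.8 (2 ml/kg replicate 5), Cesl1 lay at -7.46 and -4.32. Aox1 lay at -0.91 on saline replicate 2 and at -3.46 to -3.08 on the other saline arrays. Without saline replicate 2 the 5 ml/kg differences grew to 2.90 for Ces1d (adjusted p = 0.157), 2.76 for Cesl1 (adjusted p = 0.153), 1.62 for Cyp2e1 and 1.09 for Aox1, still with no call. The part of fat tissue in these values was not tested.

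**Figure D5:**
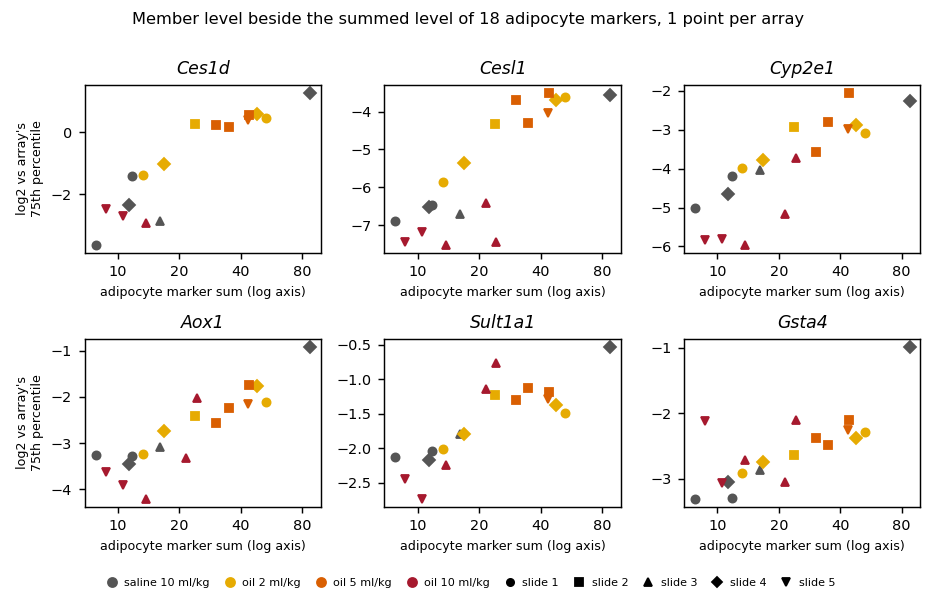
Level of Ces1d, Cesl1, Cyp2e1, Aox1, Sult1a1 and Gsta4 (log2 relative to the 75th percentile of the array) against the summed level of 18 adipocyte markers on the same array (log axis), 1 point per array with colour for the group and shape for the slide. Saline replicate 2, with a marker sum of 87.5, lies at the far right, and Ces1d has 17 points because 2 arrays lack a value.

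Other cell markers also differed at 10 ml/kg against saline. Of 12 hepatocyte markers tested, Ahsg, Alb, Apoh and Serpina1 fell and Hp rose, with a median difference of -1.05 over the 12. Their summed level went the other way, 2.62 to 4.98 with saline and 4.79 to 6.30 at 10 ml/kg. The sums add linear intensities, so the brightest markers weigh most in them. Granulocyte and mast cell markers rose in 4 of 13 (Lcn2, Prg2, S100a9 and Tpsab1; summed level 5.88 to 14.2 with saline, 12.4 to 31.1 at 10 ml/kg), and markers of endothelium and fibroblasts in 5 of 13 (8.55 to 21.1 and 14.7 to 20.7). Of 7 markers of B and plasma cells Blnk rose, and their sum was 2.20 to 2.67 on 4 saline arrays, 10.4 on saline replicate 2 and 3.89 to 4.48 at 10 ml/kg, beside 1.88 to 2.54 at 2 ml/kg and up to 2.43 at 5 ml/kg. Of 7 markers of red cell precursors Hba-a3 rose, with sums of 6.96 to 42.3 with saline and 13.7 to 37.7 at 10 ml/kg. All 12 thymocyte markers tested were above background on every array, with sums of 160 to 229 over the arrays, and Cd1d1 fell. The part of a change in cell mix in the calls of members was not tested.

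Genes that work beside these enzymes were read from fixed lists. None of the 10 tested genes of the AHR pathway outside the rule was called at 10 ml/kg against saline: the AHR repressor Ahrr differed by 0.06 (limma adjusted p = 0.83), Tiparp by 0.03 (adjusted p = 0.873) and the quinone reductase Nqo1 by 0.22 (adjusted p = 0.311). The median of that list was 0.05. Of 12 nuclear receptors and partners, Nr1i3, the constitutive androstane receptor, fell by 1.45 (adjusted p = 0.00562) and Ppara, the fatty acid receptor, by 2.27 (adjusted p = 0.0458). With slide as a block these differences were -1.05 (adjusted p = 0.203) and -0.55 (adjusted p = 0.835). Of 15 transporters Abcc3, which exports conjugates, fell by 0.80 (adjusted p = 0.00104) and stayed called with slide as a block (-1.06, adjusted p = 0.012).

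Of 30 further phase I and II enzymes tested, Mgst2 and Aldh2 rose and Fmo5 and Pon1 fell. Mgst2, a microsomal glutathione transferase that makes leukotriene C4, rose by 1.19 ± 0.131 (limma adjusted p = 2.59e-05) and by 1.26 with slide as a block (adjusted p = 0.00229). Fmo5, a flavin monooxygenase, fell by 0.66 (adjusted p = 0.000572) and was called with slide as a block (-0.61, adjusted p = 0.0311). Aldh2, the mitochondrial acetaldehyde dehydrogenase, rose by 0.52 (adjusted p = 0.00197) and was not called with slide as a block (0.40, adjusted p = 0.0925). Of 13 glutathione and NRF2 target genes 3 rose: Txnrd1, the thioredoxin reductase, by 0.57 (adjusted p = 0.0129), Ggt1, which cleaves glutathione, by 0.66 (adjusted p = 0.019), and the peroxidase Gpx1 by 0.34 (adjusted p = 0.0419). None of these 3 was called with slide as a block (adjusted p = 0.0619 to 0.454). The median of this list was 0.30.

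Besides Gstm4 and Gsto1, no glutathione S-transferase was called at 10 ml/kg against saline. Gstp1, the pi-class enzyme, lay at 2.16, 2.02, 2.07, 1.93 and 2.29 with saline and at 2.30, 2.43, 2.15, 1.91 and 1.86 at 10 ml/kg, a difference of 0.04 (limma adjusted p = 0.841). Gstm1 lay at -0.12 to 0.16 and -0.13 to 0.02, Gstk1 at -0.75 to -0.27 and -0.79 to -0.45, and Gstz1 at -0.35 to 0.52 and -0.20 to 0.18, all overlapping. Gstt2 differed by 0.51 (adjusted p = 0.112) and Gstt1 by -0.45 (adjusted p = 0.226). Outside this family, Cyp3a9 differed by 0.54 (adjusted p = 0.11) and Cyp4b1 by -0.58 (adjusted p = 0.305). Ces2h averaged -6.85 with saline, above background on 2 arrays, and -9.52 at 10 ml/kg, above it on 1. Within slide 3 its difference from saline was -1.51, that of Gsta2 0.74 and that of Cyp4f18 0.55. Against 5 ml/kg within slide 5 the differences were -0.97, 0.78 and 1.27. Neither these genes nor Sult2b1 were called.

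Several members were covered by more than 1 tested probe, 10 genes in all, and in 4 of them probes differed in sign at 10 ml/kg against saline. Cyp2s1, an extrahepatic P450, read 0.09, -1.04 and -0.60 from its 3 probes, none called. Cyp2j4, an arachidonic acid epoxygenase, read 0.54 and -0.68 against saline and 0.47 and -0.73 against 2 ml/kg, and the last of these was called when every probe was tested (adjusted p = 0.0454). Cyp2c7, named after its values were seen, had 3 probes above background on 4 or 5 arrays each and on none at 10 ml/kg. By its brightest probe it was at least 1.68-fold lower there than with saline, not called. Its other probes were called lower when every probe was tested (limma adjusted p = 0.0339 and 0.0261). Each of the 3 probes reached the filter of 4 arrays only with its 2 or 3 saline arrays counted. The filter thus favours a fall from saline, and these calls are no independent support.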

How the data were processed

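The arrays were 1-colour Agilent rat arrays of thymus RNA, quantified with Feature Extraction 10.7.3.1 and the headers of the files name build rn4 for the array design. The deposited values used are processed spot intensities on a linear scale, background-subtracted before deposit per the file headers; a deposited table of scaled intensity values served as an alternative. Control spots and spots marked as uneven or outlying were left out, and spots of a probe were averaged. Values are log2 of the intensity minus the array's 75th percentile. Accessions named 17328 of 30367 probes through a RefSeq table (GRCr8). A gene took its brightest probe, which had to be well above background on at least 4 arrays with at least 2 values in every group. limma 3.58.1 (R 4.3.3, lmFit and eBayes, two-sided) was fitted on all 19 arrays with a term for each group (15 residual degrees of freedom), Benjamini-Hochberg over 22667 genes, threshold 0.05. Each count of calls was repeated with normexp (offset 50, on the median signal because the files hold no mean signal), quantile normalization, the deposited table, slide, scan day or replicate number in the fit, other filters and array weights, and without each array. The fit was tested on simulated data. Between 69.7% and 88.4% of spots per array were well above background, and the number of arrays limits the precision.

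The members and gene lists were chosen with earlier results of these data known. Named genes were a fixed list of 33 well-known members where tested, every called member, and the 5 largest rises and falls per comparison. An "at least" fold divides the mean of the brighter group by a ceiling for the dim one: on each dim array the probe's own signal or, if greater, the faintest signal marked well above background, averaged.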

Additional observations from a re-analysis of the deposited data

Results flagged for a closer look

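Within the groups of 4 or 5 arrays, 207 sets of values were checked for a lone array far from the rest, of which chance gives about a share of 0.05, and 16 were found. In 12 of them saline replicate 2 was the highest saline array: Aox1 at -0.91, Ces1dl1 at -3.96, Cesl1 at -3.57, Ephx2 at -3.05, Gsta1 at 0.15, Gsta4 at -0.98, Gstm2 at -2.00, Gsto1 at 0.037, Gstt1 at -3.79, Gstt2 at -2.68, Gstz1 at 0.52 and Sult1a1 at -0.53. On the same array the summed adipocyte markers were 87.5 (7.77 to 16.1 on the other saline arrays) the summed B and plasma cell markers 10.4 (2.20 to 2.67), those of red cell precursors 42.3 (6.96 to 17.3), of endothelium and fibroblasts 21.1 (8.55 to 11.1) and of striated muscle 1.83 (0.64 to 0.83); their part in these values was not tested. The other 4 were Cyp4v3, lowest on saline replicate 5 at -4.43, and, at 5 ml/kg, Aox3 lowest on replicate 4 at -8.03, Cyp4a1 highest on replicate 2 at -5.67 and Gstt1 lowest on replicate 1 at -4.76.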

How the results depend on the processing

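No member was called at 5 or 2 ml/kg against saline in any fit, including those without 1 array. Counts of members called are given with the percent of all genes called in the same fit. At 10 ml/kg against saline the 12 of 91 (6.34%) became 2 with normexp (1.43%), 4 with quantile normalization (5.01%), 2 with slide as a fixed block (2.00%), 7 with slide as a random block (3.96%), 7 with only those groups in the fit (2.07%), 35 with array weights (30.9%) and 5 of 42 above background on all 19 arrays (7.39%). Against 2 ml/kg the 18 (12.5%) became 2 (1.47%), 10 (9.05%), 1 (1.23%), 5 (3.29%), 10 (5.12%), 43 (41.4%) and 9 (14.1%) in that order, and 4 with scan day as a block (3.41%). Leaving out 1 array gave 7 to 30 calls against saline (7 without 10 ml/kg replicate 2 or 3, 4.45% and 4.15%; 30 without saline replicate 5, 20.7%) and 9 to 29 against 2 ml/kg (9 and 10 without 10 ml/kg replicates 2 and 3, 5.75% and 5.93%; 11 without 2 ml/kg replicate 2 or 3, 6.34% and 5.38%; 29 without saline replicate 5, 19.9%). Deviations of same-numbered arrays correlated at -0.64 to 0.71 (median -0.024, n = 27), beside a median of 0.0052 for different numbers (n = 108). These values give no sign that replicate numbers pair the animals. They cannot exclude it, because the correlations also follow the slide (median 0.38 on the same slide). A replicate block gave 8 calls against saline (4.69%) and 11 against 2 ml/kg (7.37%). A difference called in either fit turned its sign for Ces4a (0.38 with normexp, 0.11 with quantile normalization), Cyp4a3 (0.084), Sult2a6 (0.092) and Ugt2b15 (0.11) against saline and for Sult1c3 (-0.14) against 2 ml/kg, the last 4 with normexp. The cause was not tested. By the laxer mark of positive and significant signal, 73 rather than 46 member probes were detected on all arrays, and the members that lie near background are limited by it.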

Other observations

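Extremes of the members gathered on few arrays. Saline replicate 2 was the highest of the 19 arrays for 24 of the 91 tested members and 2 ml/kg replicate 3 for 23. The lowest array was 10 ml/kg replicate 2 for 24 members and 10 ml/kg replicate 3 for 14. The same counts were not made over all genes, so this gathering is not shown to be particular to the members. Members placed side by side in the genome did not all read alike: of the tested carboxylesterases in the row Ces1f, Ces1e, Ces1d, Ces1c and Ces1a on chromosome 19, Ces1e stood high on slide 1 (-5.44 to -4.51, against -10.25 to -6.84 elsewhere), and Ces1d did not (-3.63 to 0.46, against -2.91 to 1.27).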
